A study of Mus musculus with 6 samples.

Results

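The genes described here are 5 granzyme genes, Gzma, Gzmb, Gzmc, Gzmk and Gzmm, and the perforin gene Prf1, taken by their names on the array. They make up 6 of 30342 gene names and 7 of 39429 probes, since Gzmk has 2 probes. Expression was measured in γδ T cells, the T cells that carry a γδ rather than an αβ receptor, from the spleen of Eomes-IRES-GFP mice (allele Eomestm1.1Twa, C57BL6 background), in which GFP is made from the same transcript as the transcription factor Eomes. All cells of both groups carried the reporter, and no treatment was given in the labels. After depletion of B220+, CD4+ and CD8β+ cells, CD3+ TCRγδ+ TCRβ- cells were sorted into GFP+ cells, called Eomes-positive, and GFP- cells, called Eomes-negative. Each group had 3 one-colour arrays, 1 from each of 3 independent sorts, and every sort pooled 4 to 6 spleens. The mice were 9, 9.5 and 7.5 weeks old in sorts 1, 2 and 3, and 9, 9 and 4 ng of RNA were labelled. The animals behind a pool cannot be told apart, and in RNA of sorted pools fewer cells that express a gene and less RNA per cell cannot be told apart either.

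Cytotoxic lymphocytes store granzymes and perforin in secretory granules, bound to the proteoglycan serglycin, and release them onto a target cell. Perforin makes pores in the target's membrane, and the granzymes, a family of serine proteases, enter through them and cut proteins inside. The family members differ in what they cut. Granzymes A and K cut after basic residues, granzyme B after aspartate like a caspase, and granzyme M after methionine or leucine. In CD8 T cells and NK cells Eomes and the related factor T-bet (Tbx21) are known to drive expression of perforin and granzyme genes.

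Each value is the log2 of a probe's intensity relative to the 75th percentile of all probes on its array, so a level of 0 lies at that percentile. Levels of different probes are not compared, because probes differ in their response. Genes were tested with limma over 16413 genes, with Benjamini-Hochberg adjusted p-values and a threshold of 0.05. A fit by group alone was the main test, and a sort-blocked fit, in which each sort is a block so that the cells of a sort are compared with each other, was the alternative. The array's 75th percentile lay at an intensity of 1580.7 to 1684 in sorts 1 and 2 and at 534.1 and 549.5 in sort 3, and 47.7% to 56.6% of probes were well above background. Eomes itself had levels of 0.72, 0.88 and -1.14 in Eomes-negative cells and of 5.31, 4.96 and 4.48 in Eomes-positive cells of sorts 1, 2 and 3, so the labels and the sorted gene agree in direction in all 3 sorts. The T cell receptor genes Cd3d, Cd3e and Cd3g, which define the sorted cells, differed by -0.06 to -0.07, and their SEs were 0.13 to 0.28. Of 6 γδ T cell markers tested 0 were called by either fit, with a median of -0.07 and the lowest value at Sox13 (-1.89, adjusted p = 0.257, and 0.0557 in the sort-blocked fit). Trdc, Tcrg-C, Trgc1, Trgc2, Tcrg-V2 and Tcrg-V4 matched no probe name. Of the γδ receptor chains on the list Tcrg-V1 alone was tested (-0.07, SE 0.45). Sort 2 stood apart in the markers of neutrophils and monocytes, whose summed level in units of the 75th percentile was 309 and 324 in sort 2 and 62.8 to 72 on the other 4 arrays.

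Gzmm was much higher in Eomes-positive cells and Prf1 was slightly higher, while Gzmb and Gzmc were lower within every sort. By the group-only fit 1 of the 6 genes passed the test, Gzmm, against 2.77% of all genes tested. Gzmm was higher, as were 1.20% of all genes, and 0 of the 6 were called lower, against 1.57%. The sort-blocked fit called 4 of 6, against 7.98% of all genes in either direction: Gzmm and Prf1 were higher, against 3.66%, and Gzmb and Gzmc lower, against 4.33%. The brighter Gzmk probe was higher in all 3 sorts and passed neither test, and Gzma differed in sign between sorts. Levels did not overlap between the groups for Gzmm, Prf1 and Gzmc, against 18.2% of all genes in either direction (8.53% higher and 9.68% lower), and those of Gzma, Gzmb and Gzmk overlapped. Gzmc was well above background on every Eomes-negative array but on 1 of 3 Eomes-positive arrays. Its lower level and its call in the sort-blocked fit rest in part on signal that was not well above background. A same sign in all 3 sorts, which 5 of the 6 genes had (4 with the dimmer Gzmk probe), was also found for 52.4% of all genes.

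**Figure D1:**
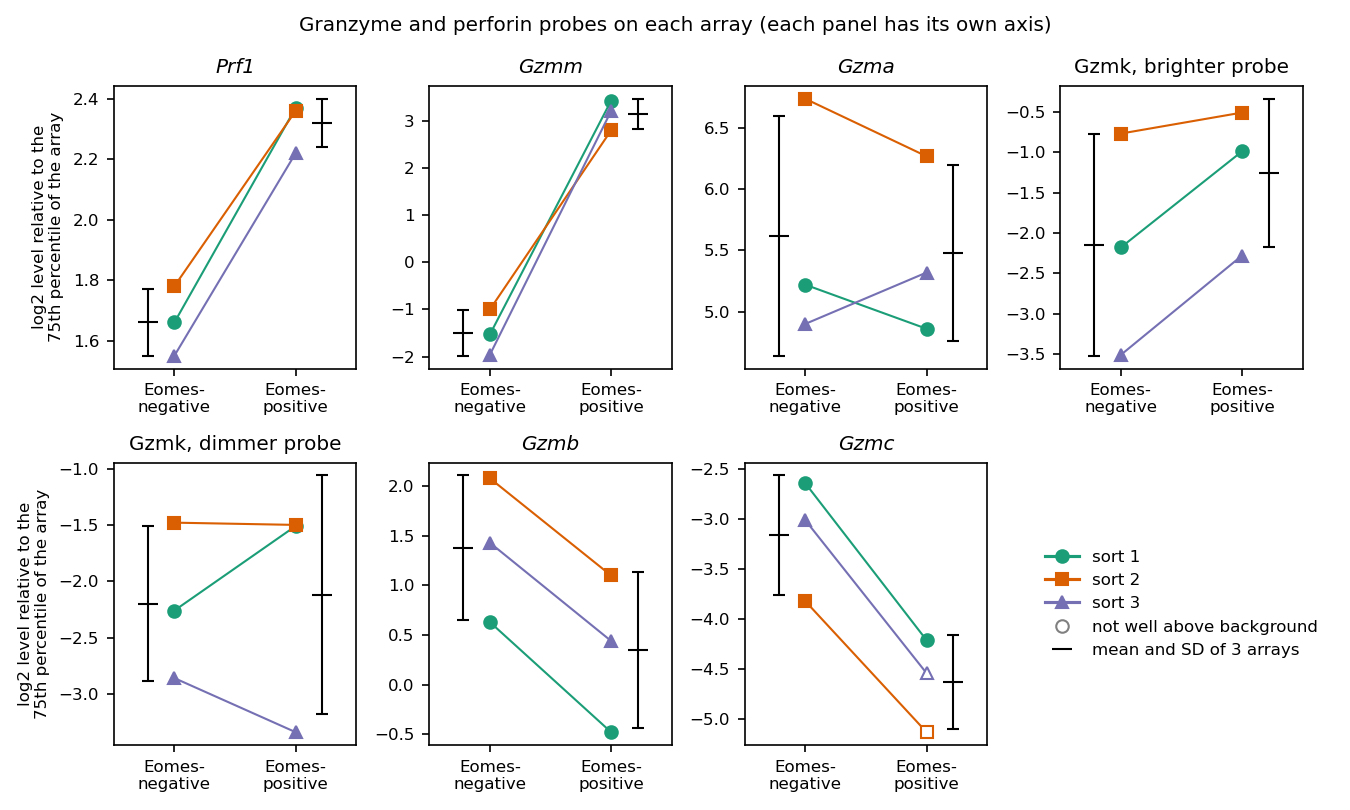
Level of each granzyme and perforin probe on each array, as log2 relative to the array's 75th percentile, with lines joining the cells of 1 sort and bars giving the mean and SD of 3 arrays. Each panel has its own axis. The Gzmm levels were -1.96 to -1.0 in Eomes-negative and 2.80 to 3.43 in Eomes-positive cells, the Gzmb lines run down side by side from different heights, and open symbols mark the 2 Gzmc values that were not well above background.

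The probes read single stretches of the transcripts, and the regions before the gene starts are shown for the genes with a probe that differed in the same direction in all sorts, for Gzmk the brighter of its 2 probes. RefSeq's promoter sequences on GRCm38.p6 matched all 6 genes with 7 starts, Gzmm having 2, and each window below holds the 250 bases before the start, 5′ to 3′ on the gene's strand. Capitals mark matches on either strand to 4 short motifs. The T-box word GGTGTGA, to which Eomes and T-bet can bind, was found in 3.33% of all 32851 such windows. The Runx word TGTGGT, which reads ACCACA on the other strand, was found in 14.0%. The STAT pattern TTCNNNGAA was in 7.02% of the windows and the AP-1 pattern TGANTCA in 6.75%. The windows are chr10:79688770-79689019 and chr10:79693576-79693825 for Gzmm (plus strand), chr10:61297586-61297835 for Prf1 (plus strand), chr14:56262335-56262584 for Gzmb, chr14:56234658-56234907 for Gzmc and chr13:113180966-113181215 for Gzmk (these 3 on the minus strand). They are printed so that the matches can be seen in place.
Gzmm, start 1: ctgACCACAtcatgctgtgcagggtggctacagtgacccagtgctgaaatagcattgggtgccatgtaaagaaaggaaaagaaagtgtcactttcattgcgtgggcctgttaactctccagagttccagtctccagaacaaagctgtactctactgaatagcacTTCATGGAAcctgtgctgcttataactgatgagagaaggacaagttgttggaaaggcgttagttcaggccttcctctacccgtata
Gzmm, start 2: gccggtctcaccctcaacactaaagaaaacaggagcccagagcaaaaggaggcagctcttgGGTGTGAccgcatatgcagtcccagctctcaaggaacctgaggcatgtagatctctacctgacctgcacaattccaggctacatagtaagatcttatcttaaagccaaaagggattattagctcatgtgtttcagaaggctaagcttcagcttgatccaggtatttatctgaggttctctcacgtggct
Prf1: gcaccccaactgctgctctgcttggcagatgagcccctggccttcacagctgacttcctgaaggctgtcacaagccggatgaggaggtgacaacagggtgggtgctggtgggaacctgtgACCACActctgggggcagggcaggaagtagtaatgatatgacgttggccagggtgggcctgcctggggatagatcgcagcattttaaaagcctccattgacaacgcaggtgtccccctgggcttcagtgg
Gzmb: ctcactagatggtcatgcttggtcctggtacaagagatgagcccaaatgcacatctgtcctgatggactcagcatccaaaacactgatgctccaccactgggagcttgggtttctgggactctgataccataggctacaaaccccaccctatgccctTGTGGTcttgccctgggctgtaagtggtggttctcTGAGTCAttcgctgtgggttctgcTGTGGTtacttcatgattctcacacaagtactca
Gzmc: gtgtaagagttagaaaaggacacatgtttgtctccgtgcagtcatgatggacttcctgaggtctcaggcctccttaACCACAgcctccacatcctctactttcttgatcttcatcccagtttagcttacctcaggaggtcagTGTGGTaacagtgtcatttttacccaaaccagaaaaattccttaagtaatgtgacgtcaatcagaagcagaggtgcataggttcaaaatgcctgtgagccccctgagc
Gzmk: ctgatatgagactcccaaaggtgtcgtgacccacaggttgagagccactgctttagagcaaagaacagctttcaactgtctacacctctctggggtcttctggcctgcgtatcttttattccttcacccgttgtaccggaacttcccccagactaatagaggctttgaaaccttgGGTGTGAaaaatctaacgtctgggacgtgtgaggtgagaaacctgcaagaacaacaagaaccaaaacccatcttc
The T-box word was in 2 of the 7 windows, at -189 to -183 of the second Gzmm start and at -75 to -69 of Gzmk, counted from the start. The Runx word was at -247 to -242 of the first Gzmm start, at -130 to -125 of Prf1, and at 2 places each in Gzmb (-93 to -88 and -34 to -29) and Gzmc (-174 to -169 and -108 to -103). The first Gzmm start also had the STAT pattern at -86 to -78, and Gzmb had the AP-1 pattern at -58 to -52. Gzma, whose window is not printed, had 1 match, the Runx word at -50 to -45. The T-box and Runx words can share letters, and none of these matches overlapped. A match says only that these letters are present, and no binding was measured.

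Gzmm encodes granzyme M, known from NK cells and other innate-like lymphocytes. Its probe lies at chr10:79157946-79158005 (mm9, plus strand), at position 1226 of transcript NM_008504. In Eomes-negative cells the level was -1.53, -1.0 and -1.96 in sorts 1, 2 and 3, and in Eomes-positive cells it was 3.43, 2.80 and 3.21. All Eomes-positive arrays lay far above all Eomes-negative arrays, and all 4 spots of the probe were well above background on every array. Within sorts the Eomes-positive cells were 31.2, 14.0 and 36.1-fold higher. The means were 3.15 ± 0.32 and -1.50 ± 0.48 (SD, n = 3 each), a log2 difference of 4.65 (SE 0.30, 95% interval 3.90 to 5.39), or 25.1-fold, with a limma adjusted p of 0.00268. It ranked 37 of the 16413 genes by p-value, and 0.317% of the genes had a greater difference in size. An exact permutation test of 3 against 3 arrays gave the smallest two-sided p it can, 0.1.

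The Gzmm difference was 4.70 within slide 1, 5.18 within slide 3 and 4.90 with the slide as a block. Without a single array the adjusted p stayed at 0.0108 to 0.0209. Without a whole sort the difference was 4.38 to 5.07, and the limma call was lost, with an adjusted p of 0.116 without sort 1, 0.0616 without sort 2 and 0.0526 without sort 3. The sort-blocked fit called Gzmm too (adjusted p = 0.00867), without sort 2 (0.0162) or sort 3 (0.0472) as well, but not without sort 1 (0.0682). In the group-only fit, leaving out sort 1 or sort 2 removed all calls among the 16413 genes. Markers of NK cells and ILC1, which the CD3 and TCRγδ gate should exclude, moved in part the same way. The median difference over 14 tested markers was 0.88. Klrk1 (-0.23), Itga2 (0.02) and Fcer1g (0.18) lay near 0, and Ncr1 differed by 1.70 (adjusted p = 0.184). None was called lower (0 of 14), and 4 were called higher, against 1.20% of all genes. These were the receptor genes Klrb1c (1.66), Klre1 (4.33) and Klri2 (2.88) and the kinase-like gene Styk1 (2.62). Klra4 was called higher as well in the sort-blocked fit (0.97, adjusted p = 0.0344). The summed level of the list was higher in the Eomes-positive cells of each sort. It was 52.4, 141 and 43.3 in Eomes-negative and 109, 170 and 133 in Eomes-positive cells of sorts 1, 2 and 3. No marker on the list was below background on all arrays. The part of NK cells and ILC1 in the Gzmm result was not tested.

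Prf1, the perforin gene, differed little in size and evenly across the sorts. Its probe lies at chr10:60766941-60767000 (mm9, plus strand), at position 1983 of transcript NM_011073. The level was 1.66, 1.78 and 1.55 in Eomes-negative and 2.37, 2.36 and 2.22 in Eomes-positive cells of sorts 1, 2 and 3. Every Eomes-positive array was above every Eomes-negative array, with group means of 2.32 ± 0.08 and 1.66 ± 0.11 (SD, n = 3 each). The log2 difference was 0.65 (SE 0.14, 95% interval 0.32 to 0.99), or 1.57-fold, which did not pass the group-only test (limma adjusted p = 0.0867) but did pass once sorts were blocked (SE 0.09, adjusted p = 0.0319). The sorts gave 0.71, 0.58 and 0.67, with an SD of 0.07 that was smaller in 9.69% of all genes. It also passed with an intensity trend and robust variances (adjusted p = 0.0424). Leaving out a sort under the block gave adjusted p-values of 0.148 without sort 1, 0.133 without sort 2 and 0.117 without sort 3. The difference was 0.65 within slide 1 and 0.67 within slide 3. The exact permutation p was 0.1, the smallest possible.

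Gzmb and Gzmc, neighbours in the granzyme cluster on chromosome 14 with probes 27.6 kb apart, had lower levels in the Eomes-positive cells of each sort. Gzmb encodes granzyme B, the granzyme best known for setting off apoptosis. Its probe lies at chr14:56877916-56877975 (mm9, minus strand), at position 1135 of transcript NM_013542. The Gzmb level was 0.63, 2.08 and 1.43 in Eomes-negative cells and -0.48, 1.10 and 0.44 in Eomes-positive cells of sorts 1, 2 and 3. The groups overlapped, because the sorts differed more from each other than the groups did within a sort. Within sorts the Eomes-positive cells were 2.16, 1.97 and 1.99-fold lower, with log2 differences of -1.11, -0.98 and -0.99. The mean difference of -1.03 did not pass the group-only test (SE 0.53, 95% interval -2.33 to 0.28, limma adjusted p = 0.584) and passed in the sort-blocked fit (SE 0.09, 95% interval -1.27 to -0.78, adjusted p = 0.0138). The SD of the 3 Gzmb differences, 0.07, was smaller in 11.2% of all genes. The block call was lost without sort 1 (adjusted p = 0.0924), sort 2 (0.0728) or sort 3 (0.0698), with differences of -0.99 to -1.05. Within slide 1, which held both groups of sort 1 and the Eomes-negative array of sort 2, the Gzmb difference was -1.83, and within slide 3 it was -0.99.

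Gzmc encodes granzyme C, a mouse granzyme with close copies in the same cluster. Its probe lies at chr14:56850307-56850366 (mm9, minus strand), at position 805 of transcript NM_010371. The level was -2.64, -3.82 and -3.01 in Eomes-negative cells and -4.21, -5.13 and -4.54 in Eomes-positive cells of sorts 1, 2 and 3. Every Eomes-positive array was below every Eomes-negative array, but the signal was dim, and 1 of 3 Eomes-positive arrays measured it. In Eomes-positive cells of sort 2, 1 of 4 spots was well above background, and 0 of 4 were in sort 3. The log2 difference was -1.47 (SE 0.38, 95% interval -2.42 to -0.52), with sorts at -1.56, -1.31 and -1.54, and the sort 2 and sort 3 values rest on Eomes-positive signal that was not well above background. It did not pass the group-only test (limma adjusted p = 0.156) and passed in the sort-blocked fit (SE 0.10, adjusted p = 0.00929). Under the block the adjusted p was 0.0743 without sort 1, 0.0409 without sort 2 and 0.0558 without sort 3. With normexp background correction the difference was -0.72. Slide 1 alone gave -0.98 and slide 3 alone -1.54. The exact permutation p was 0.1 for Gzmc and 0.2 for Gzmb.

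The other 5 granzyme genes of that cluster, Gzmd, Gzme, Gzmf, Gzmg and Gzmn, had under 50% of their spots well above background on each of the 6 arrays, so no difference was tested. The Gzmc window before its start shared 79.2% to 84.4% of its letters with those of Gzmd to Gzmg, and the Gzmb window shared 56.4% to 60.8% with those of Gzmc to Gzmg. Whether transcripts of these close copies bind the Gzmc probe was not tested.

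**Figure D2:**
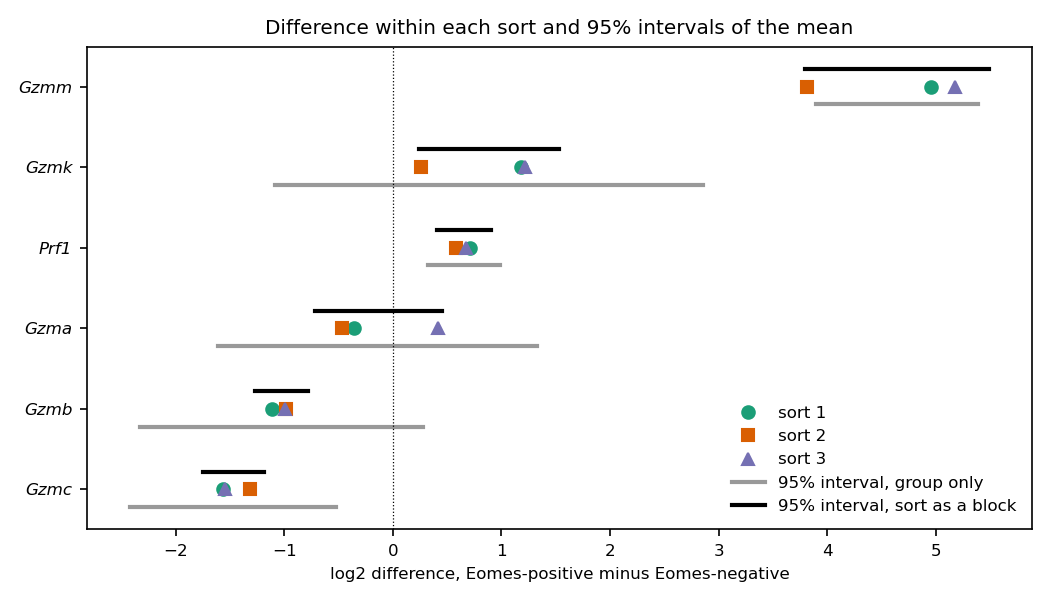
Log2 difference between Eomes-positive and Eomes-negative cells within each of the 3 sorts (symbols), with the 95% intervals of the mean difference from the group-only fit (grey) and from the fit with the sort as a block (black). The block interval of Gzmb narrowed to -1.27 to -0.78 around 3 nearly equal sort values, while Gzmm has the symbols farthest from 0.

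Gzma and Gzmk lie next to each other on chromosome 13, with probes 77.8 kb apart, and encode the granzymes that cut after basic residues. The Gzma probe lies at chr13:113884035-113884094 (mm9, minus strand), at position 818 of transcript NM_010370. Its level was 5.22, 6.74 and 4.90 in Eomes-negative cells and 4.86, 6.27 and 5.32 in Eomes-positive cells of sorts 1, 2 and 3. Both populations gave strong signal on all arrays, and the groups overlapped. The sort differences were -0.36, -0.47 and 0.42, with a mean of -0.14 (SE 0.60, 95% interval -1.61 to 1.33, limma adjusted p = 0.992). The sort-blocked interval was -0.72 to 0.45 (adjusted p = 0.709), so a change of up to about that size in either direction is within the error. The sign turned without sort 2, where the mean was 0.03, and the difference was -1.12 within slide 1 and 0.42 within slide 3.

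The brighter Gzmk probe, with no RefSeq gene in its annotation, lies at chr13:113961816-113961875 (mm9, minus strand), at position 1244 of an Ensembl transcript, ENSMUST00000122399. Its level was -2.18, -0.77 and -3.51 in Eomes-negative cells and -0.99, -0.51 and -2.28 in Eomes-positive cells. The Eomes-positive cells were higher in each sort, by 1.18, 0.26 and 1.22, while the groups overlapped because the sorts lay far apart. The mean of 0.89 passed neither the group-only test (SE 0.80, 95% interval -1.08 to 2.86, limma adjusted p = 0.857) nor the sort-blocked test (SE 0.24, adjusted p = 0.112). The dimmer probe, which spans 314 bases of the genome at chr13:113970774-113971087 (mm9) and starts at position 18 of transcript NM_008196, did not follow it. It had levels of -2.26, -1.48 and -2.86 in Eomes-negative and -1.51, -1.50 and -3.34 in Eomes-positive cells. Its sort differences were 0.75, -0.02 and -0.48, with a mean of 0.09 (adjusted p = 0.997), so the Gzmk probes disagreed in sort 3. Without sort 2 the brighter probe's difference was 1.20.

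The 6 genes differed in how much they varied between sorts. The sort mean, the average of both groups of a sort, ranged over 1.46 for Gzma, 1.52 for Gzmb, 1.05 for Gzmc and 2.25 for Gzmk. It ranged over 0.32 for Gzmm and 0.18 for Prf1, and the median gene ranged over 0.50. Sort 2 had the highest mean for Gzma (6.50 against 5.04 and 5.11), Gzmb (1.59 against 0.08 and 0.94) and Gzmk (-0.64 against -1.59 and -2.90), and the lowest for Gzmc (-4.47 against -3.42 and -3.78). Sort 2 was also the sort in which the summed level of neutrophil and monocyte markers averaged 316, against 67.0 and 67.4, that of dendritic cell markers 140, against 88.6 and 80.8, and that of NK and ILC1 markers 156, against 80.7 and 88.2. None of the markers of neutrophils and monocytes or of dendritic cells was called between the groups by the group-only fit. The sort-blocked fit called 1, Ctsg, a granule serine protease gene of myeloid cells, higher (1.18, adjusted p = 0.0183), from a probe measured on 3 of 6 arrays. The part of these cells in the levels was not tested. The 4 spots of a probe on 1 array, which carry technical error only, had an SD of 0.025 to 0.30 over the brighter probe of each gene.

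Markers of cells that make granzymes or related proteases outside the sorted population were measured too. Of 12 markers of mast cells and basophils 5 could be tested, and Tpsab1 and Ms4a2 were below background on all arrays. The group-only fit called 0 in either direction, while the sort-blocked fit called 1 lower, Kit (-1.17, adjusted p = 0.0489), against 4.33% of all genes. Cma1 went the other way, by 2.59, 1.37 and 3.72 in the sorts, and passed neither test (adjusted p = 0.47, and 0.0593 in the sort-blocked fit). The summed level of the list was 5.99 to 7.32 in Eomes-negative and 2.31 to 5.58 in Eomes-positive cells. Kit was the brightest tested marker in that sum, with mean levels of 2.49 in Eomes-negative and 1.31 in Eomes-positive cells. Of 7 markers of αβ T cells tested 1 fell, Cd8b1 (-2.86, adjusted p = 0.0194), against 1.57% of all genes, and 0 rose. The sort-blocked fit called Foxp3 lower as well (-1.09, adjusted p = 0.0495). The αβ receptor genes Tcra (0.18) and Tcrb-J (-0.43) were called by neither fit, and Trac, Trbc1 and Trbc2 matched no probe name. The summed level of the list was 15.4 to 18.9 in Eomes-negative and 8.93 to 9.03 in Eomes-positive cells. Cd8b1, whose product was used for depletion, was the brightest tested marker in Eomes-negative cells (mean level 2.53, and -0.32 in Eomes-positive cells). For 8 markers of B cells the summed level was 14.7 to 18.2 in Eomes-negative and 7.2 to 11.4 in Eomes-positive cells. Of the 6 tested the group-only fit called 0, and the sort-blocked fit called 1 lower, Cd79b (-0.92, adjusted p = 0.0217). The summed levels of the mast cell, αβ T cell and B cell lists were lower in the same cells as Gzmb and Gzmc. The part of these lists in those differences was not tested.

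The genes beside Gzmm on the chromosome did not share its difference. Of its 10 flanking genes on the array, 5 on each side, 7 were tested, 0 passed either test, and their differences were -0.23 to 0.04. Named after their values were seen, the nearest on each side are Cdc34, a ubiquitin-conjugating enzyme gene with a probe at -6.87 kb (0.04), and Bsg, which encodes basigin, at 15.4 kb (-0.23). Around Prf1 8 genes were tested and 0 passed the group-only test. The sort-blocked fit called 1, Adamts14, a metalloprotease gene named after its values were seen (1.95, adjusted p = 0.0324), at a dim level measured on 5 arrays. Around Gzmb and Gzmc the neighbours called by the sort-blocked fit were Gzmc and Gzmb themselves, and the other tested neighbours had differences of -0.05 to 0.30. Around Gzma and Gzmk 5 neighbours each were tested and 0 passed either test.

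**Figure D3:**
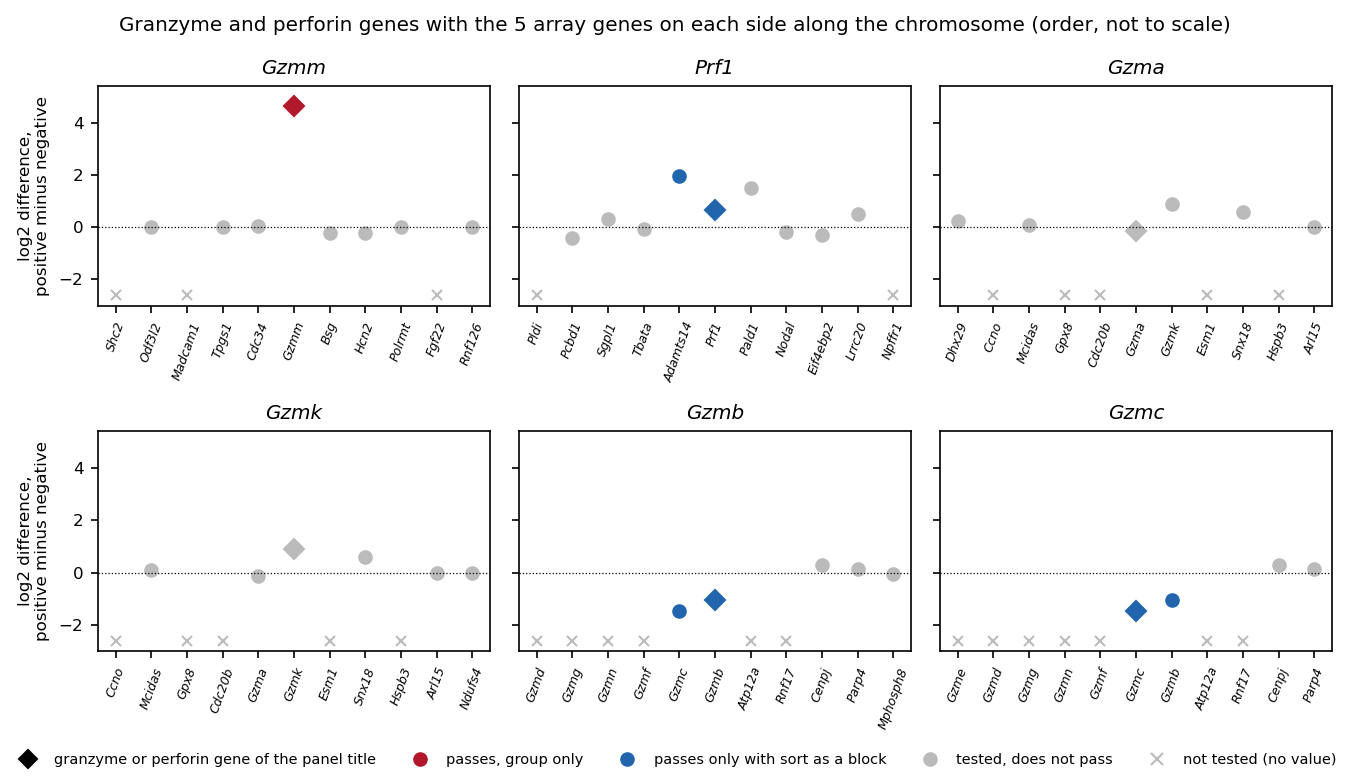
Log2 difference between Eomes-positive and Eomes-negative cells for each granzyme and perforin gene (diamond) and for the 5 array genes on each side in chromosome order, with distances not to scale. Gzmm stands at 4.65 among neighbours at -0.23 to 0.04, Gzmb and Gzmc are low side by side, and crosses mark genes that were not tested and carry no value.

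Genes whose levels over the 6 arrays lay closest to each of the 6 genes were found by the distance between centred log2 levels, so this likeness holds over 6 arrays only. Closest to Gzmm were Rasl12 (distance 0.52), the lectin receptor gene Klre1 (0.64) and the chemokine receptor gene Cxcr5 (0.82). For Prf1 they were the neuropeptide gene Nmb (0.11), the kinase gene Eef2k (0.12) and Pacsin2 (0.15). Top2a, a topoisomerase gene (0.36), Cdca8 (0.40) and Prc1 (0.42) were closest to Gzmb. The Gzmc pattern was nearest to Tcp11 (0.40) and the IL-7 receptor gene Il7r (0.55). Near Gzma were Tnfrsf4 (0.33), the granulin gene Grn (0.34) and the kinesin gene Kif5a (0.35), and near Gzmk were Lair1 (0.55), Nlrc4 (0.60) and Zfp105 (0.76).

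The rest of the killing pathway was read from 6 further lists, chosen with earlier results of these data known and set beside a median difference of -0.013 over all genes tested. For the counts on each list, the group-only fit called 1.20% of all genes higher and 1.57% lower. The sort-blocked fit called 3.66% higher and 4.33% lower. Genes for the proteins that fill the granule and process the granzymes had no call by either test, which does not show that their RNA was unchanged. None of the 15 tested was called in either direction (0 higher, 0 lower), and their median was -0.07. The brightest were Srgn, which encodes serglycin (-0.22, adjusted p = 0.782), and Nkg7, a granule membrane protein gene (0.17, adjusted p = 0.841). Cd63, a tetraspanin of granule membranes and named after its values were seen, differed by 2.61, 0.94 and 3.93 in the 3 sorts, a mean of 2.49 that passed neither test (SE 1.01, adjusted p = 0.408, and 0.0961 in the sort-blocked fit). Of 16 exocytosis genes 1 rose, Stx11, a syntaxin needed for granule fusion (1.36, SE 0.22, adjusted p = 0.0425), 0 fell, and the median was 0.00. In the sort-blocked fit 3 fell as well, Rab27a (-0.90), which docks granules at the membrane, and its effectors Sytl1 (-1.07) and Sytl3 (-0.59), and 0 were called lower in that fit without any 1 sort. Stx11 lost its call without any 1 sort or array and with the slide as a block.

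Inhibitors of granzymes and of the cathepsins that act in the granule pathway moved in both directions. The median difference was 0.97 over 9 tested genes of the list, of which 3 rose and 1 fell by the group-only fit. The sort-blocked fit called 5 higher and 2 lower, against 3.66% and 4.33% of all genes. The list and its median also include Spn (-0.02, called by neither fit), which encodes the surface protein CD43 and is no protease inhibitor. Ctla2b (3.12, SE 0.18, adjusted p = 0.0019) and Ctla2a (2.93, SE 0.19, adjusted p = 0.0026) are near copies that encode cysteine protease inhibitors, and signal shared between their probes was not tested. The serpin gene Serpina3g rose by 1.18 (SE 0.18, adjusted p = 0.0324), and Serpinb1a, which encodes an inhibitor of neutrophil-type serine proteases, fell by 5.06 (SE 0.83, adjusted p = 0.0418). Blocking by sort, Serpinb9, the inhibitor of granzyme B, also rose (0.97), as did Serpinb6b (1.04), and Serpinb6a fell (-1.04). Without any 1 sort that fit called 2 inhibitors higher, and it called 1 lower without sort 2 and 0 without sort 1 or 3. Serpinb9b was below background on all arrays. By the group-only fit 2 inhibitors rose without sort 3 or any 1 array and 0 rose without sort 1 or sort 2. The count called lower was 1 without Eomes-positive array 2 and 0 without each other array or sort.

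Of 6 death ligand and cytotoxic cytokine genes 1 rose, Tnfsf10, which encodes TRAIL (1.77, SE 0.18, adjusted p = 0.00992), and 0 fell. The median of the 6 was 0.28. In the sort-blocked fit Fasl (0.86) and Ifng (0.70) rose too, and Lta (-1.28) and Tnf (-2.37) fell. Of this list that fit called 0 higher and 1 lower without sort 1, 0 in either direction without sort 2, and 1 higher and 0 lower without sort 3. The Tnfsf10 call was lost without any 1 sort, without Eomes-positive array 1 and without Eomes-negative array 2. The median of 27 transcription factor genes of the cytotoxic programme was 0.10, and 3 of them rose while 0 fell. Besides Eomes (4.76, SE 0.59, adjusted p = 0.0178), on which the cells were sorted, these were Tbx21, which encodes T-bet (1.12, SE 0.19, adjusted p = 0.0447), and Stat4, which carries the IL-12 signal (1.01, SE 0.18, adjusted p = 0.0499). The sort-blocked fit called 4 higher and 4 lower, adding Tox (0.75) and, lower, Prdm1 (-1.15), Lef1 (-1.04), Klf2 (-0.65) and Irf4 (-1.53). Without 1 sort it called 0 of the factors lower, and 0, 3 and 1 higher without sorts 1, 2 and 3. Without sort 1 or sort 2 limma called 0 of these factors, and 1 without sort 3. Without 1 array it called 0 to 2, with 0 without Eomes-negative array 1 or any of the 3 Eomes-positive arrays, and with median scaling it called 1. A further name on the list, Zfp683, matched no probe name.

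The list of receptors of cytokines that induce granzymes and perforin also holds the kinase genes Jak1 and Jak3, called by neither fit. Its median was 0.02 over 16 genes, and 1 rose while 2 fell. Il2rb encodes the β chain through which T cells sense IL-2 and IL-15, and it rose by 1.42 (SE 0.16, adjusted p = 0.014). Il2ra, the α chain of the IL-2 receptor, fell by 1.62 (SE 0.27, adjusted p = 0.043), and Il18r1, the IL-18 receptor gene, fell by 1.75 (SE 0.28, adjusted p = 0.0415). The sort-blocked fit called Il7r lower too (-1.42), and it called 0 of the receptors without sort 1 or 3 and 1 in each direction without sort 2. Limma called 0 of these receptors without any 1 sort or array, except that it called 1 higher and 1 lower without Eomes-positive array 2. With median scaling 0 were called lower, and with the slide as a block 1 was.

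**Figure D4:**
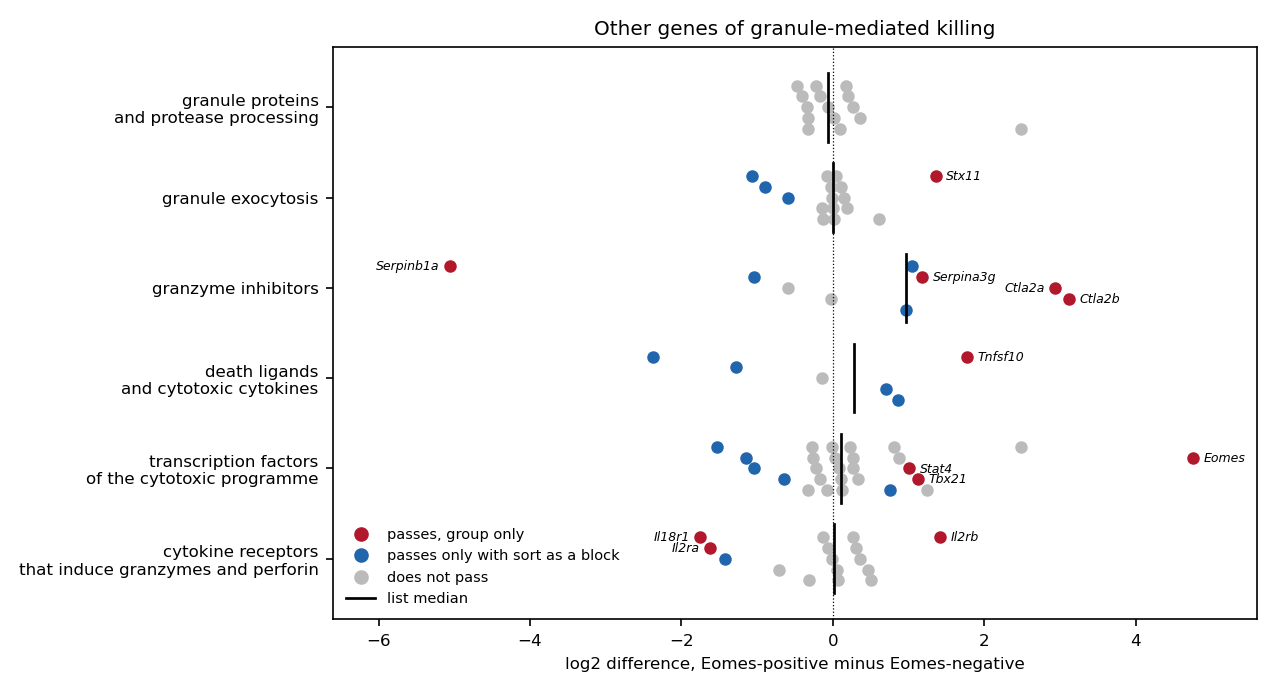
Log2 difference between Eomes-positive and Eomes-negative cells of each tested gene on 6 lists of the killing pathway, with the median of each list as a bar. Genes that passed the group-only test are named, among them Serpinb1a at -5.06 and Ctla2b at 3.12, and the granule proteins, of which 0 passed, have a median of -0.07 with Cd63 apart at 2.49.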

How the data were processed

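RNA of 3 Eomes-positive and 3 Eomes-negative γδ T cell samples was measured on 1-colour Agilent arrays, read with Agilent Feature Extraction 10.7.3.1 per the submitters' processing notes. The deposited scanner values are spot intensities, background-subtracted and detrended per the file headers, with coordinates on mm9, and flags per spot that hold 0 or 1. The authors' value table, scaled linear intensities whose method is not given in the sources used here, was an alternative.

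Spots flagged as outliers were left out, the 4 spots of a probe averaged, and the log2 deposited intensity taken relative to each array's 75th percentile. A probe was taken as measured when 50% or more of its spots on that array were flagged well above background, a gene was its brightest probe, and genes measured on at least 3 arrays were tested (limma 3.58.1, R 4.3.3). RefSeq accessions named 27508 probes, of which 2017 changed name, and 11921 kept the file's name. No spot of the 6 genes was saturated. The number of arrays limits the precision.

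The replicate numbers mark independent sorts per the labels. Deviations from the group means correlated at 0.81, 0.82 and 0.81 between cells of the same sort and at -0.57 to -0.26 otherwise. The sort-blocked fit takes the sort as a pairing, while the group-only fit and the permutation test leave this pairing out. The genes named were the 6 members with every probe, list genes past the test or, where none passed, the 2 brightest, Eomes, flanking genes where any passed, and the 3 nearest patterns per member, of which 1 for Gzmc is not reported here. Cell type markers, Cdc34, Bsg, Adamts14, Cd63, Spn, Jak1 and Jak3 were named after their values were seen. Members and lists were chosen with earlier results of these data known.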

Additional observations from a re-analysis of the deposited data

How the results depend on the processing

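Over the alternatives to the group-only fit, Gzmm kept its direction and its call under all 11 other processing or model settings that gave a test, with differences of 4.34 to 4.90. With the sort as a replicate block, Gzmb (-1.03, adjusted p = 0.0138), Gzmc (-1.47, adjusted p = 0.00929) and Prf1 (0.65, adjusted p = 0.0319) passed the test, and the calls came to 2 higher and 2 lower among the 6 genes and to 600 higher and 710 lower among all genes. With an intensity trend and robust variances Prf1 passed (0.65, adjusted p = 0.0424), for 2 called higher. Within slide 1 the differences of Gzma, Gzmb and Gzmc were -1.12, -1.83 and -0.98, and within slide 3 Gzma turned to 0.42. Slide 1 held the Eomes-negative array of sort 2 without its Eomes-positive partner, and slide 3 held the sort 3 pair alone. With no filter on dim probes 92 genes were higher and 154 lower, 0 of the cytokine receptors were called and Stx11 lost its call, with more genes tested. With genes measured on all 6 arrays 166 were lower, and Gzmc was not tested.

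Without 1 sort or array the difference of Gzma was -0.53 to 0.42, Gzmb -1.40 to -0.61, Gzmc -1.80 to -1.21, Gzmk 0.21 to 1.58, Gzmm 4.38 to 5.07 and Prf1 0.60 to 0.71. The calls were 0 to 101 higher and 0 to 180 lower among all genes and 0 to 1 higher and 0 lower among the 6. Limma called 0 genes without sort 1, where 1354 had an unadjusted p under 0.05, and 0 without sort 2, where 1267 had one. In fits chosen after seeing the data, with the sort as a replicate block and without 1 sort, Gzmm lost its call without sort 1 (4.49, adjusted p = 0.0682), where 43 genes were higher and 99 lower. Gzma turned to 0.03 without sort 2, where Gzmc (-1.55) was the 1 gene called lower among the 6, and 274 of all genes were lower. Without sort 3, 111 of all genes were higher. The cause was not tested.

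Low signal limits Gzmc, which 1 of 3 Eomes-positive arrays measured.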
